A study of Homo sapiens with 4 samples.

Results

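Autophagy genes were examined in HCCLM3 cells, a human hepatoma cell line, with and without stable depletion of KIAA1429. The members were 39 gene symbols chosen by name: the ATG8 family (GABARAP and MAP1LC3 genes), the initiation and lipid kinase complexes, the conjugation enzymes, the ATG4 proteases and the cargo receptors. Of these, 38 were listed among 13036 genes, and all 38 were among the 11657 genes tested. MAP1LC3B2 was not analysed here. The members were represented by 147 of 38510 listed transcripts, of which 18 belonged to the GABARAP and MAP1LC3 genes.

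RNA-seq had been performed on 4 libraries, 2 from cells infected with a control lentivirus (shCtrl) and 2 from cells infected with a lentivirus carrying a hairpin against KIAA1429 (shKIAA1429). KIAA1429, listed as VIRMA, is a scaffold of the complex that writes N6-methyladenosine on mRNA, and the comparison asked how gene expression differed when it was depleted. All libraries came from the same cell line, and 1 hairpin sequence, expressed from the plasmid psi-LVRU6GP, was used for the knockdown. The sources do not say whether each line was a pool or a clone, or whether the 2 libraries of a group were separate cultures, so p-values measured only the spread between these libraries, which may be technical.

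Autophagy delivers cytoplasmic material to the lysosome in a double-membraned vesicle. The ULK1 complex starts the process, a class III phosphatidylinositol kinase complex marks the membrane, and ATG9A and ATG2 proteins supply it with lipid. ATG8 proteins, comprising the GABARAP and LC3 subfamilies, are trimmed by ATG4 proteases and coupled to phosphatidylethanolamine by an enzyme cascade that resembles ubiquitination. Once on the membrane, they hold cargo receptors such as SQSTM1 and take part in the closure and fusion of the vesicle.

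The start of the coding sequence is printed for both main GABARAPL1 transcripts and for the leading transcripts of GABARAP, MAP1LC3A and MAP1LC3B. It shows how the members differ and where each annotated GABARAPL1 coding sequence begins. The 84 coding bases of GABARAPL1-205 equal the end of the 354-base coding sequence of GABARAPL1-201. The GABARAPL1-205 stretch printed here thus also lies inside the coding sequence of GABARAPL1-201. The first 30 coding bases were read 5′ to 3′ from the GENCODE annotation of GRCh37, the build of the deposited values, with the start codon in capitals.
GABARAPL1-201: ATGaagttccagtacaaggaggaccatccc
GABARAPL1-205: ATGggccaactgtatgaggacaatcatgag
GABARAP-201: ATGaagttcgtgtacaaagaagagcatccg
MAP1LC3A-203: ATGccctcagaccggcctttcaagcagcgg
MAP1LC3B-201: ATGccgtcggagaagaccttcaagcagcgc

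The GABARAPL1-201 stretch lay in exon 1 at chr12:10365729-10365758 on the plus strand. The GABARAPL1-205 stretch began in exon 3, at base 10373140 of the same chromosome, and ran into exon 4. Over the full coding sequence, GABARAPL1 was identical to GABARAP at 76.8% of aligned bases and to GABARAPL2 at 62.1%, and MAP1LC3A was identical to MAP1LC3B at 73.5%. Identity between the subfamilies was lower, from 51.3% for GABARAP with MAP1LC3A to 58.7% for GABARAP with MAP1LC3B. GABARAPL1 was 95.5% identical to the processed pseudogene GABARAPL3, and MAP1LC3B was 99.5% identical to MAP1LC3B2, so the values of GABARAPL1 and MAP1LC3B are uncertain where reads could be assigned to either copy.

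Values were deposited as FPKM, a fragment count scaled to transcript length and to the mapped total of the library, and were summed over the listed transcripts of each gene. No counts were given and the depth was unknown. Summed FPKM over all listed transcripts ranged from 370253 to 390224 across libraries. Of the hepatocyte and hepatoma markers, 3 of 11 were listed, and their sum ranged from 2093 to 2151 in shCtrl and from 2146 to 2211 in shKIAA1429, nearly all of it KRT8 and KRT18. ALB, AFP, APOA1, APOA2, TTR, HNF4A, GPC3 and EPCAM were not listed. SERPINA1, the other listed marker, was low, at 3.34 to 5.63 FPKM. The name of a hepatoma line was thus taken from the sources and was not borne out by these markers. Of 12 markers of leukocytes, endothelium and fibroblasts or stellate cells, 5 were listed (CD68, ACTA2, PDGFRB, COL1A1 and DCN), with sums of 105 and 115 in shCtrl and 103 and 112 in shKIAA1429, and PTPRC, PECAM1, VWF, CDH5, CD3E, MS4A1 and COL1A2 were not. VIRMA measured 9.37 and 14.1 FPKM in shCtrl and 6.90 and 8.52 in shKIAA1429. It was lower in both knockdown libraries, with a log2 fold change of -0.53 ± 0.24 (SE, n = 2 per group) and an adjusted p of 0.917 by limma.

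GABARAPL1 stood apart from the other autophagy genes. GABARAPL1, whose product acts mainly at later steps of vesicle maturation, measured 79.1 and 56.0 FPKM in shCtrl and 13.8 and 13.4 in shKIAA1429. Both knockdown libraries lay far below both controls, and the knockdown values were close to each other. The mean was 67.6 ± 16.3 in shCtrl and 13.6 ± 0.298 in shKIAA1429 (SD, n = 2 per group), so the knockdown mean was 20.1% of the control mean. The log2 fold change of FPKM + 1 was -2.21 ± 0.20 (SE), with a 95% interval from -2.73 to -1.69. This was the most negative log2 fold change among all 11657 genes tested and ranked 3 in absolute size and 5 by p-value. The adjusted p by limma was 0.238, so GABARAPL1 did not pass the threshold of 0.05. In RNA from bulk cells, fewer expressing cells and less RNA per cell cannot be told apart.

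The other 4 ATG8 genes showed no such separation, and in each of them the values of the 2 groups overlapped. GABARAP, the founding member of its subfamily, measured 67.2 and 54.4 FPKM in shCtrl and 80.0 and 56.6 in shKIAA1429. GABARAPL2, also known as GATE-16, measured 41.5 and 44.9 in shCtrl and 38.04 and 41.8 in shKIAA1429. Neither gene had both knockdown libraries on the same side of both controls, and the log2 fold changes were 0.15 ± 0.22 for GABARAP and -0.11 ± 0.13 for GABARAPL2 (SE, n = 2 per group).

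MAP1LC3A and MAP1LC3B encode LC3 proteins, which take part in elongation of the membrane and in cargo recruitment. MAP1LC3A measured 20.1 and 9.48 FPKM in shCtrl and 24.1 and 9.59 in shKIAA1429. MAP1LC3B measured 16.6 and 10.6 in shCtrl and 15.2 and 10.2 in shKIAA1429. In both LC3 genes the spread followed the replicate number and not the group, since each replicate 1 was above each replicate 2. The log2 fold change was 0.13 ± 0.53 for MAP1LC3A, with a 95% interval from -1.24 to 1.51, and -0.08 ± 0.29 for MAP1LC3B. The interval of MAP1LC3A therefore covered more than a doubling in either direction, and these libraries cannot tell a moderate difference from none.

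**Figure D1:**
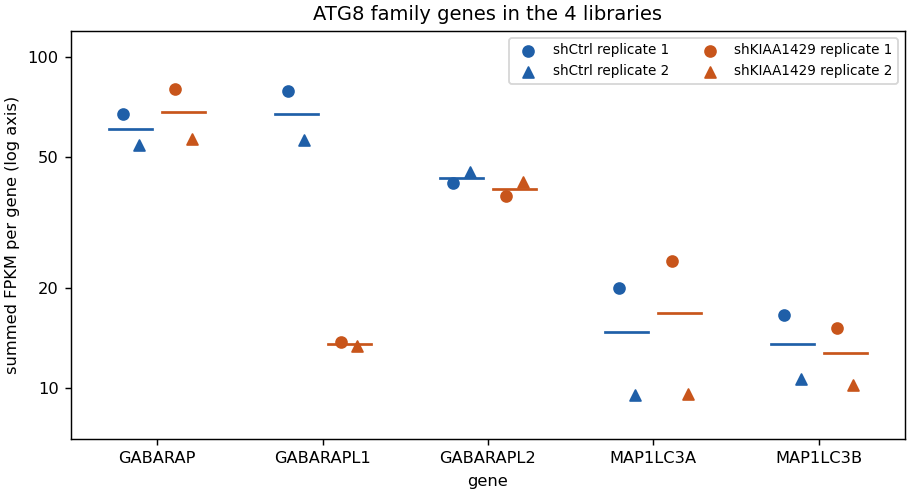
Summed FPKM of the 5 listed ATG8 genes on a log axis, with a point for each library (circles, replicate 1; triangles, replicate 2) and a short line at each group mean. GABARAPL1 was at 56.0 and 79.1 in shCtrl and at 13.4 and 13.8 in shKIAA1429, whereas the groups overlapped in the other 4 genes.

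Ordered by mean FPKM over all libraries, GABARAP was highest of the ATG8 genes, followed by GABARAPL2 and GABARAPL1, and the LC3 genes were lowest. In shCtrl, GABARAPL1 and GABARAP overlapped at the top. In shKIAA1429, GABARAPL1 lay below GABARAPL2 in both libraries and within the range of the LC3 genes. GABARAPL1 made up 35.2% and 31.9% of the summed ATG8 FPKM in the shCtrl libraries and 8.06% and 10.2% in the shKIAA1429 libraries. In shCtrl, 86.2% and 85.2% of the GABARAPL1 value was that of GABARAPL1-205, whose annotated coding part is 84 bases. GABARAPL1-201, with the full coding sequence of 354 bases, was at 5.35 and 3.16 FPKM there. The share of GABARAPL1 in FPKM is therefore not a share of full coding sequence. The summed FPKM of the other 4 genes was 145 and 119 in shCtrl and 157 and 118 in shKIAA1429, which overlapped between groups.

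In the deposited transcript values, the lower GABARAPL1 value was carried mainly by a single transcript, GABARAPL1-205. That transcript has 0 exonic bases that are in no other listed transcript of the gene, so its share is an estimate. GABARAPL1-205 (chr12:10366039-10375709) measured 68.2 and 47.8 FPKM in shCtrl and 7.46 and 8.04 in shKIAA1429. Its mean in the knockdown was 13.4% of the control mean, for a log2 fold change of -2.73 ± 0.23 (SE) and a 95% interval from -3.38 to -2.08. Over the 24996 transcripts tested the adjusted p by limma was 0.147, above the threshold. GABARAPL1-205 made up 86.2% and 85.2% of the GABARAPL1 total in shCtrl, and 54.1% and 60.2% in shKIAA1429.

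GABARAPL1-201, which holds the full coding sequence, measured 5.35 and 3.16 FPKM in shCtrl and 4.07 and 2.29 in shKIAA1429. Its groups overlapped, with a log2 fold change of -0.33 ± 0.36 (SE) and a 95% interval from -1.36 to 0.70. Its value was close to 0 without shCtrl replicate 1 (-0.03) or shKIAA1429 replicate 2 (-0.02), and was -0.64 without either of the other libraries. GABARAPL1-203 measured 1.58 and 1.25 in shCtrl and 1.27 and 0.781 in shKIAA1429, and also overlapped. GABARAPL1-216 measured 3.11 and 2.38 in shCtrl and 0.459 and 1.89 in shKIAA1429. GABARAPL1-202, below the limit for testing, measured 0.836 and 1.47 in shCtrl and 0.534 and 0.361 in shKIAA1429. The latter pair of transcripts were lower in both knockdown libraries, and none of the 4 tested GABARAPL1 transcripts passed the test.

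With GABARAPL1-205 left out of the sum, an alternative added after the data were seen, GABARAPL1 measured 10.9 and 8.27 FPKM in shCtrl and 6.33 and 5.32 in shKIAA1429. The remaining transcripts were thus still lower in both knockdown libraries, by a smaller margin. This remainder differed by -0.62 ± 0.19 on the log2 scale (SE), with an unadjusted p of 0.0239 and an adjusted p of 0.813 by limma.

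The 2 main GABARAPL1 transcripts differ at their 5′ ends. GABARAPL1-205 has 4 exons of 1700 bases in all, of which 1522 (89.5%) are shared with GABARAPL1-201. The 178 bases that are not shared with GABARAPL1-201 form a noncoding first exon at chr12:10366039-10366216, which lies in the first intron of GABARAPL1-201. In the annotation the coding part of GABARAPL1-205 is 84 bases long and equals the end of the 354-base coding sequence of GABARAPL1-201, so 270 coding bases are missing from it. Because these transcripts share most of their bases, the division of reads between them rests on the first exons and on the estimation method, which the sources used here do not name. The first exon of GABARAPL1-205 also lies within that of GABARAPL1-203. GABARAPL1-205 thus has 0 exonic bases that are in no other listed transcript of the gene. The antisense gene GABARAPL1-AS1 lies in the same intron and shares 0 exonic bases with GABARAPL1-201 or GABARAPL1-205 and 27 with GABARAPL1-203.

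**Figure D2:**
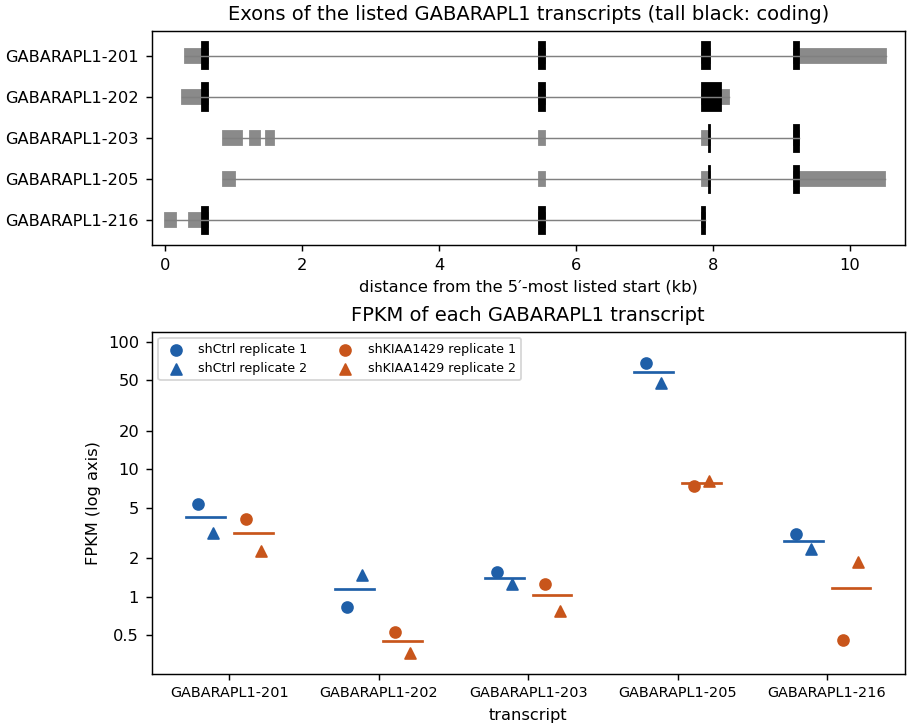
Top, exons of the 5 listed GABARAPL1 transcripts against distance in kb from the first listed start, with coding bases as tall black boxes. Bottom, FPKM of each transcript on a log axis, with a point for each library and a line at each group mean; GABARAPL1-205 was at 47.8 and 68.2 in shCtrl and at 7.46 and 8.04 in shKIAA1429.

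On the scale of log2(FPKM + 1), the transcripts of the other ATG8 genes showed no difference of that size. In plain FPKM, the knockdown mean of MAP1LC3A-204 was 721% of its shCtrl mean, at low values. GABARAP-201, with 77.7% to 81.0% of the GABARAP total, measured 53.2 and 42.2 FPKM in shCtrl and 64.8 and 45.1 in shKIAA1429. GABARAP-205, the next transcript of the gene, measured 9.89 and 8.73 in shCtrl and 11.7 and 8.11 in shKIAA1429. GABARAP-203, GABARAP-204 and GABARAP-206 lay between 0.614 and 2.28 FPKM in every library. Of these, GABARAP-204 was lower in both knockdown libraries, at 0.674 and 0.868 against 1.19 and 1.02.

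GABARAPL2-201 measured 39.4 and 43.2 FPKM in shCtrl and 36.6 and 36.96 in shKIAA1429. It was lower in both knockdown libraries, with a log2 fold change of -0.16 ± 0.13 (SE). GABARAPL2-203 was high in a single library, at 3.53 in shKIAA1429 replicate 2 against at most 0.872 in the other 3. GABARAPL2-202 and GABARAPL2-204 stayed below 0.9 FPKM.

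MAP1LC3A-203 measured 15.6 and 7.75 FPKM in shCtrl and 19.3 and 7.28 in shKIAA1429, the same replicate pattern as the gene. MAP1LC3A-201 measured 4.49 and 1.28 in shCtrl and 2.77 and 1.12 in shKIAA1429. MAP1LC3A-204, a transcript without a defined coding sequence, was listed at 0 and 0.443 in shCtrl and at 2.001 and 1.20 in shKIAA1429, with an unadjusted p of 0.0263 and an adjusted p of 0.644 by limma. MAP1LC3B was represented by MAP1LC3B-201 alone. In total, 13 of the 18 ATG8 transcripts reached the level for testing and 0 were called, as were 0 of all 24996 transcripts (percent called 0.00). Over all members, 8 of 94 tested transcripts had an unadjusted p under 0.05 by limma, beside 6.28% of all transcripts, GABARAPL1-205 and MAP1LC3A-204 among them.

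No autophagy gene was called at an adjusted p under 0.05 with an absolute log2 fold change over 1, in a table where 0 of 11657 genes were called by limma (percent called 0.00). At an unadjusted p under 0.05 there were 3 of 38 autophagy genes, beside 5.63% of all genes. GABARAPL1 and ATG4D were lower, beside 2.65% of all genes, and ATG4B was higher, beside 2.98%. An absolute log2 fold change over 1 was seen in 1 member, GABARAPL1, beside 1.07% of all genes. Both shKIAA1429 values were below both shCtrl values in 7 of 38 members, beside 16.7% of all genes, and above them in 7, beside 16.9%. These shares were near the background.

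The median log2 fold change was 0.014 over the 38 members and -0.0083 over all genes tested, and the median absolute log2 fold change was 0.143 and 0.139. In 24 of 38 members the absolute log2 fold change was under 0.2, beside 7543 of all 11657 genes tested. In 31 members it was under 0.3, beside 9323 of all genes tested. These shares were near those of all genes. Without GABARAPL1, the members ranged from -0.60 (ATG4D) to 0.68 (ATG4B). Standard errors ran from 0.12 to 0.53, with a median of 0.18.

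**Figure D3:**
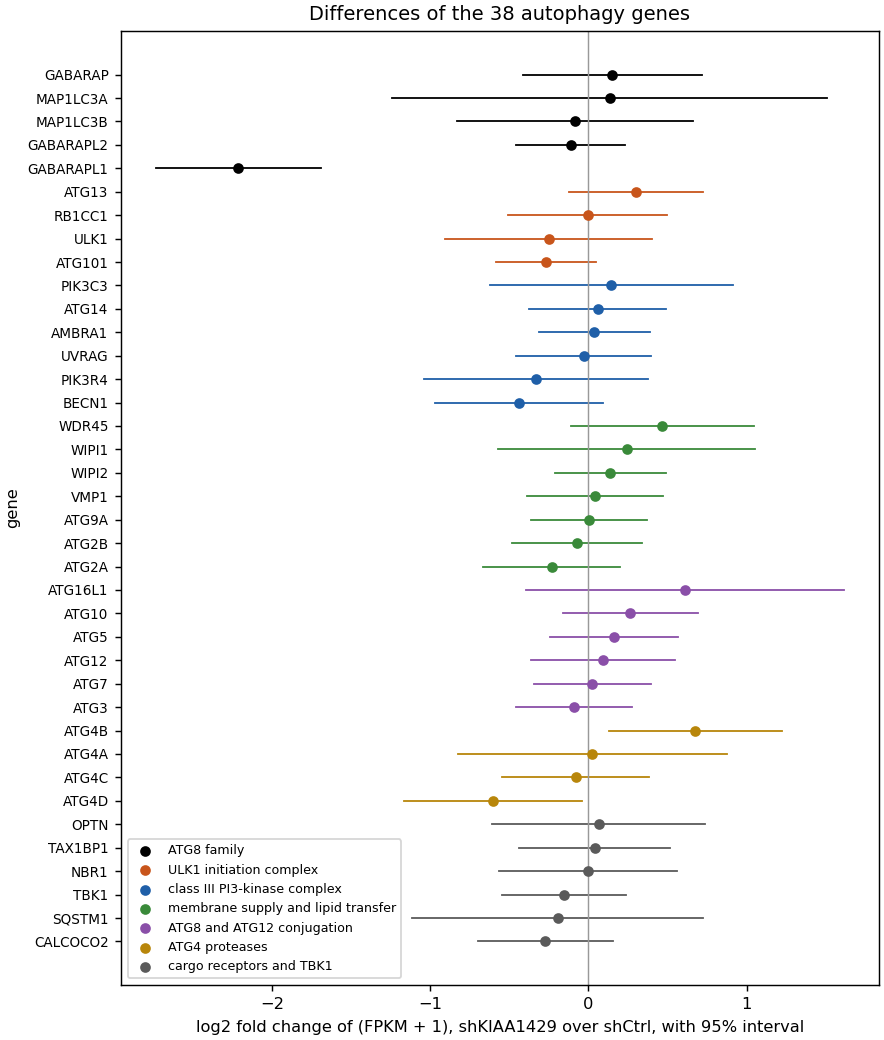
Log2 fold change of FPKM + 1, shKIAA1429 over shCtrl, for the 38 autophagy genes (points) with the 95% interval from limma (lines), grouped and coloured by role. GABARAPL1 lay at -2.21, and the other 37 genes lay between -0.60 and 0.68.

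The ATG4 proteases trim new ATG8 proteins and release them again from membranes. ATG4B, the most active of them, measured 4.64 and 6.11 FPKM in shCtrl and 10.5 and 7.93 in shKIAA1429. Both knockdown libraries were above both controls, and its difference on the log2 scale was 0.68 ± 0.21 (SE), with an unadjusted p of 0.0244 and an adjusted p of 0.815 by limma. ATG4D, which acts mainly in removing ATG8 proteins from membranes, measured 4.83 and 6.67 in shCtrl and 2.95 and 3.92 in shKIAA1429. It lay lower in both knockdown libraries, with a log2 fold change of -0.60 ± 0.22 (SE), an unadjusted p of 0.0408 and an adjusted p of 0.884 by limma. These 2 proteases thus differed in opposite directions, without passing the test over all genes. ATG4C, at 1.70 to 2.34 FPKM, and ATG4A, at 0.563 to 1.80, overlapped between the groups and were the 2 least expressed members.

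The conjugation enzymes couple ATG12 to ATG5 and ATG8 proteins to lipid. ATG16L1, which places the conjugation complex on the membrane, measured 7.42 and 2.88 FPKM in shCtrl and 8.11 and 7.39 in shKIAA1429. Its log2 fold change of 0.61 ± 0.39 (SE) rested on the low value of shCtrl replicate 2, and without that library it was 0.05, against 1.17 without shCtrl replicate 1. ATG10, the E2-like enzyme for ATG12, measured 2.69 and 3.32 in shCtrl and 3.68 and 3.91 in shKIAA1429, higher in both knockdown libraries by 0.26 ± 0.17 on the log2 scale (SE). ATG3, the E2-like enzyme for ATG8 proteins, lay between 17.0 and 19.5 in every library, and ATG7, the E1-like enzyme of both branches, between 9.15 and 10.1. Of the 6 conjugation genes, 5 had a log2 fold change above 0, beside 5612 of all 11657 genes tested. By limma, 0 had an unadjusted p under 0.05, beside 5.63% of all genes, and so few genes cannot be told from the background.

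The ULK1 complex is the kinase that starts autophagy. ATG101, which stabilises ATG13 in the complex, measured 49.0 and 49.998 FPKM in shCtrl and 41.9 and 40.1 in shKIAA1429. ATG13, the adaptor of the kinase, measured 18.1 and 21.8 in shCtrl and 26.3 and 23.0 in shKIAA1429. ATG101 was lower and ATG13 higher in both knockdown libraries, by -0.27 ± 0.12 and 0.30 ± 0.16 on the log2 scale (SE), and neither passed (adjusted p 0.917 and 0.943 by limma). ULK1, the kinase itself, measured 17.2 and 12.3 in shCtrl and 14.5 and 10.01 in shKIAA1429, and RB1CC1, its scaffold, lay between 5.88 and 7.52. In ULK1 and RB1CC1 the groups overlapped.

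The class III kinase complex makes phosphatidylinositol 3-phosphate on the growing membrane. BECN1, its regulatory subunit Beclin 1, measured 16.7 and 21.8 FPKM in shCtrl and 12.2 and 15.6 in shKIAA1429. Both knockdown libraries lay below both controls, with a log2 fold change of -0.44 ± 0.21 (SE) and an adjusted p of 0.917 by limma. PIK3R4, the VPS15 subunit, measured 5.86 and 8.26 in shCtrl and 4.17 and 6.77 in shKIAA1429 and overlapped between groups. AMBRA1, which binds Beclin 1, lay between 13.3 and 14.0 and UVRAG, an alternative subunit, between 4.20 and 5.12. The 6 genes of this complex were split, with 3 log2 fold changes above 0 and 3 below.

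Of the 7 genes for membrane supply and lipid transfer, 5 had a log2 fold change above 0, beside 5612 of all 11657 genes tested. So few genes cannot be told from the background. WDR45, a reader of phosphatidylinositol 3-phosphate also called WIPI4, measured 19.4 and 13.3 FPKM in shCtrl and 24.7 and 20.7 in shKIAA1429, higher in both knockdown libraries by 0.47 ± 0.22 on the log2 scale (SE), with an adjusted p of 0.918 by limma. Leaving out shCtrl replicate 2 gave 0.21, and leaving out shCtrl replicate 1 gave 0.73. With protein-coding transcripts only, WDR45 differed by 0.30. WIPI2, which recruits ATG16L1 to the same lipid, measured 20.2 and 18.4 in shCtrl and 21.5 and 21.3 in shKIAA1429. VMP1, a membrane protein of the endoplasmic reticulum that moves lipid between leaflets, lay between 35.3 and 45.0 with overlapping groups.

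Cargo receptors link ubiquitinated or damaged material to ATG8 proteins. SQSTM1, or p62, was the most abundant member, at 309 and 217 FPKM in shCtrl and 313 and 163 in shKIAA1429. Its replicates differed by more than its groups did, with a log2 fold change of -0.19 ± 0.35 (SE). NBR1, a related receptor, measured 38.3 and 27.6 in shCtrl and 36.3 and 29.0 in shKIAA1429, again with both replicates 1 above both replicates 2. CALCOCO2, or NDP52, a receptor for bacteria and mitochondria, measured 38.7 and 31.1 in shCtrl and 27.2 and 29.97 in shKIAA1429. CALCOCO2 was lower in both knockdown libraries, by -0.27 ± 0.16 on the log2 scale (SE), and by -0.12 without shCtrl replicate 1 or -0.43 without shCtrl replicate 2. Of the 6 genes in this group, 2 were lower in both knockdown libraries (CALCOCO2 and TBK1, a kinase of the receptors, the latter named after its values were seen), beside 16.7% of all genes, and 0 were higher in both, beside 16.9%. None had an unadjusted p under 0.05, beside 5.63%, and so few genes cannot be told from the background.

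Many members separated by replicate number. Both replicates 1 were above both replicates 2 in 15 of 38 autophagy genes, beside 22.0% of all genes, and the reverse held in 4 (GABARAPL2, PIK3R4, VMP1 and ATG4A), beside 25.1%. The 15 included 3 of the 5 ATG8 genes and 4 of the 6 cargo receptor genes, among them SQSTM1 and NBR1. Relative to each gene's mean, the median member deviated by 0.091 and -0.075 in shCtrl replicates 1 and 2 and by 0.088 and -0.057 in shKIAA1429 replicates 1 and 2 on the log2 scale. The median deviation thus followed the replicate number and not the group. These are medians of signed deviations, in which rises and falls of single genes cancel, so they do not give the size of group differences. The labels do not say what the replicates with the same number share.

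**Figure D4:**
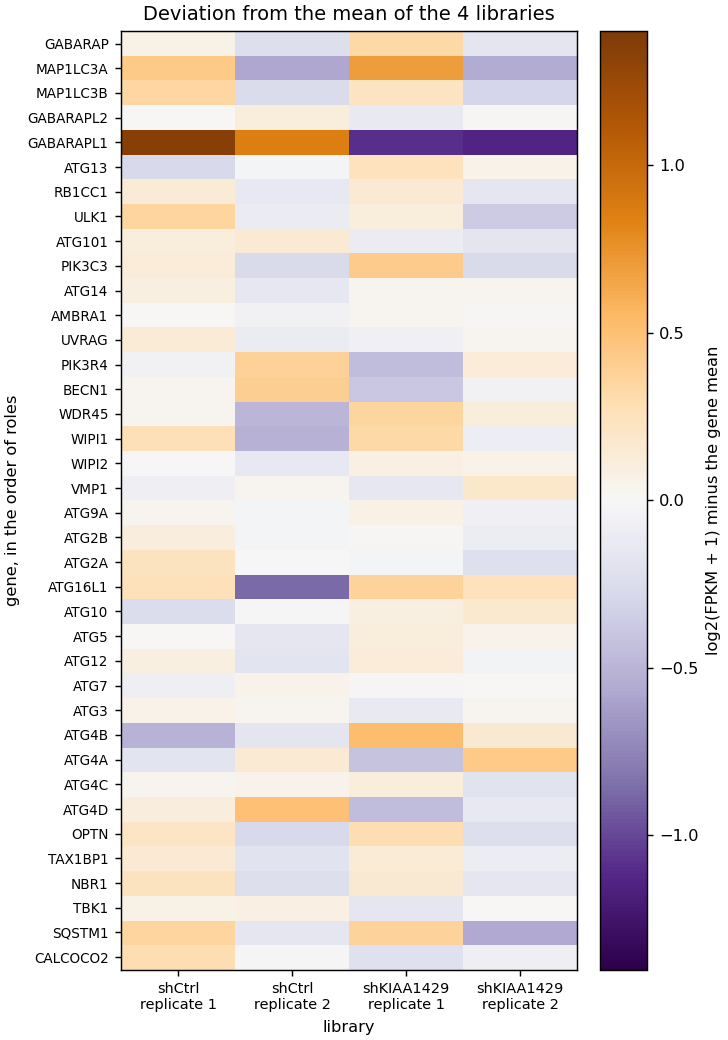
Deviation of log2(FPKM + 1) from the mean of the 4 libraries for each of the 38 autophagy genes (rows, in the order of roles) in each library (columns), with orange above and purple below the gene mean. GABARAPL1 followed the groups, whereas 15 genes, among them MAP1LC3A and SQSTM1, were higher in both replicates 1.

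Other genes of the autophagy pathway were taken from a list of 55, including regulators, fusion factors and receptors for organelles. Of these, 52 were listed and 50 tested, and 0 were called. At an unadjusted p under 0.05 there were 2, WDR45B and VAMP8, named after their values were seen and both higher, beside 5.63% of all genes. Of the 50, 11 were lower in both knockdown libraries, beside 16.7% of all genes, and 7 were higher in both, beside 16.9%. Their median log2 fold change was -0.05. The largest absolute values were those of FUNDC1, a mitochondrial receptor, at -0.58, TEX264, a receptor for the endoplasmic reticulum, at 0.56, and BNIP3L, a mitochondrial receptor also called NIX, at 0.55. FUNDC1 measured 6.38 and 7.11 FPKM in shCtrl and 5.27 and 3.27 in shKIAA1429, TEX264 13.4 and 13.8 against 26.1 and 15.9, and BNIP3L 25.5 and 11.3 against 26.5 and 24.5. None of these 3 differences reached the size of that of GABARAPL1.

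Promoter windows were searched for CACGTG, a palindrome that reads the same on both strands and is the core of the element bound by the MiT/TFE factors that control many lysosomal and autophagy genes. Windows of 300 bases, 250 before to 50 after each start, were available from RefSeq (GRCh38.p14) for 35 of the members, with 44 windows. The motif was present in 3 windows (6.82%), those of ATG3, ATG14 and TBK1, and in 7.26% of all 35116 windows. It was not found in the available windows of ATG8 genes, and so few windows cannot be told from the background.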

How the data were processed

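Total RNA of HCCLM3 cells had been sequenced in 4 libraries, 2 shCtrl and 2 shKIAA1429, and groups were taken from the sample titles. The deposited values are FPKM per transcript, calculated by the authors, and list transcripts whose highest value over the 4 libraries was above 0.5. The submitters' processing notes name Bowtie2 2.1.0 and hg19. The methods name TopHat for alignment and HTSeq for counting, followed by a count-based test. The tool that made the FPKM, and whether counting used strand, are not given in the sources used here. Depth was unknown.

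FPKM were summed per gene. Genes or transcripts with at least 1 FPKM in at least 2 libraries were fitted on log2(FPKM + 1) by group with limma 3.58.1 (R 4.3.3; trended eBayes, two-sided tests), with Benjamini-Hochberg adjustment over everything tested. Fold changes on this scale understate those of low values. Calls required an absolute log2 fold change over 1 as well as an adjusted p under 0.05. For a single value, 2 against 2 libraries cannot give an exact permutation p below 0.333, and none is given. The scripts were tested on simulated data. Alternatives were a pseudocount of 0.1, other filters, upper quartile scaling, protein-coding transcripts only, a robust variance estimate, a replicate block and leaving out each library.

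The members and gene lists were chosen with earlier results of these data known. Named were all ATG8 genes, the 10 other members with the largest absolute log2 fold change, up to 2 more per role by mean FPKM, and the 3 largest differences in the rest of the pathway. Gene symbols altered to dates in some tables were taken from an unaltered one. Exons and coding sequences came from GENCODE v44lift37 (GRCh37), where some transcripts have a later version than in the deposited tables, and were aligned with Biopython 1.88.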

Additional observations from a re-analysis of the deposited data

How the results depend on the processing

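With all 4 libraries kept, no autophagy gene and no ATG8 transcript was called under any alternative. Over the whole table, 0 genes were called by limma under any of these. The median log2 fold change of the members ran from -0.11 (without shCtrl replicate 2) to 0.079 when a library was left out, against 0.014 with all, and from 0.00094 to 0.026 under the others. Leaving out a library turned 3 ATG8 genes: GABARAP ran from -0.095 (without shKIAA1429 replicate 1) to 0.40, MAP1LC3A from -0.49 (without shKIAA1429 replicate 1; -0.37 without shCtrl replicate 2) to 0.76, and MAP1LC3B from -0.38 to 0.22 (without shCtrl replicate 1; 0.18 without shKIAA1429 replicate 2). MAP1LC3A was 0.02 with protein-coding transcripts only, against 0.13 with all its listed transcripts. GABARAPL1 stayed between -2.46 and -1.97 without a library. Under the other alternatives GABARAPL1 stayed between -2.29 and -2.20 (adjusted p by limma 0.232 to 0.303). GABARAPL1-205 stayed between -2.98 and -2.48, and between -2.87 and -2.73. Other members moved by over 1.5 times without a change of direction. BECN1 was -0.26 without shCtrl replicate 2 and -0.27 without shKIAA1429 replicate 1, and ATG13 was 0.17 and ATG10 0.15 without shCtrl replicate 1. PIK3R4 ran from -0.62 (without shKIAA1429 replicate 2; -0.55 without shCtrl replicate 1) to -0.04 (without shKIAA1429 replicate 1; -0.12 without shCtrl replicate 2). GABARAPL2 ran from -0.18 (without shKIAA1429 replicate 2) to -0.04 (without shKIAA1429 replicate 1; -0.06 without shCtrl replicate 2). The causes of these moves were not tested. For fits without a library, counts by p-value are not given, since a group then held a single library.

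With replicate number as a replicate block, 0 autophagy genes were called, as were 0 of 11657 genes over the whole table. Genes with an unadjusted p under 0.05 went from 3 to 6 of the 38 members, with BECN1, WDR45 and ATG101 added to GABARAPL1, ATG4B and ATG4D, and from 656 to 1269 over the whole table. Deviations of libraries with the same number correlated at 0.68 across the members and 0.32 across all genes, with only 2 pairs and no label of what a number marks. The count-based tests planned for a count table were not run, because the values are FPKM. With depth unknown and 2 libraries a group, small differences of single genes could not be resolved.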

Other observations

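Several transcripts of members differed between the groups in their estimated values, and were picked out once those values were known. By limma, 8 of 94 tested transcripts of members had an unadjusted p under 0.05, beside 6.28% of all transcripts. RB1CC1-201 measured 1.59 and 2.92 FPKM in shCtrl and 0.1595 and 0.102 in shKIAA1429, while the RB1CC1 total overlapped between groups, as did that of UVRAG. UVRAG-207 measured 2.79 and 2.26 in shCtrl and 0.0284 and 0.840 in shKIAA1429, and UVRAG-201 measured 2.33 and 1.94 in shCtrl and 4.31 and 3.89 in shKIAA1429. UVRAG-201 thus made up 45.4% and 46.3% of the UVRAG total in shCtrl and 99.3% and 82.2% in shKIAA1429. ATG13-207 measured 2.50 and 8.94 in shCtrl and 0.158 and 0.117 in shKIAA1429. ATG13-203, at 6.32 and 1.86 against 13.1 and 10.1, and ATG13-216, at 0.182 and 7.83 against 9.50 and 10.2, went the other way. The division between ATG13 transcripts thus also differed widely between the shCtrl libraries. WIPI2-203 measured 0.0997 and 0.424 in shCtrl and 1.80 and 1.63 in shKIAA1429, and ATG4B-209 0.394 and 0.853 against 1.85 and 1.57. The totals of ATG13, WIPI2 and ATG4B were themselves higher in both knockdown libraries. Adjusted p-values by limma of the transcripts named in this paragraph ran from 0.388 for RB1CC1-201 to 0.973 for ATG13-216. Most of these values are low, and the division of reads between transcripts of a gene was estimated by a tool that is not named in the sources used here.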
